A study of Mus musculus with 6 samples.

Results

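The transcripts described here are those of 9 junction genes of the Sertoli cell, the somatic nurse cell of the seminiferous tubule: Cldn11, Cldn3, Ocln and Tjp1 of tight junctions, Gja1 of gap junctions, Nectin2 and Cdh2 of adherens junctions, and Dsp and Jup of desmosomes. They were taken by symbol from a table of 22274 genes, and all 9 were found and passed the filter on low counts, which left 14424 genes to be tested. Messenger RNA was counted in whole testes of mice at a time given as day 9, with no word on the event from which days run. Of 6 libraries, 3 are labelled control, with no further genotype given. The other 3 carry a conditional knockout (cKO) of Dcaf2, made by combining floxed alleles (Dcaf2fl/fl) with Stra8-Cre. Stra8-Cre drives recombination in spermatogonia, so the deletion was aimed at germ cells and not at the Sertoli cells in which these junctions are known. Replicates are numbered without saying which animals they came from, and the p-values therefore reflect only how much these samples vary, which may be technical.

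Sertoli cells join each other near the base of the tubule in a belt that combines tight, gap, adherens and desmosome junctions, the blood-testis barrier. Claudins and occludin seal the space between the cells and are tied to actin by the scaffold TJP1 (ZO-1), while connexin channels pass small molecules from cell to cell. N-cadherin and nectins hold neighbouring membranes together, and desmosomes anchor intermediate filaments. The barrier is known to seal during the first wave of spermatogenesis, when spermatocytes form, and germ cells cross it as they enter meiosis.

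Totals ran from 15407007 to 18372964 counts per library. The 3 control libraries differed more among themselves (chi-square per degree of freedom of 15.5 to 52.3 over tested genes) than the 3 cKO libraries (4.28 to 6.28). Control library 1 took part in the 2 largest of these values, and results of members that rest on it are given with and without it. The calls and medians of the cell type markers are given only with it. The targeted gene, listed under its current symbol Dtl, was at 56.7 ± 18.3 CPM (its count scaled to the size of the library) in controls and 45.7 ± 5.15 CPM in cKO (mean ± SD, n = 3 each; edgeR adjusted p = 0.281), and a count over the whole gene also takes in transcripts without the deleted part. Defining markers of the labelled tissue were present, with the Sertoli cell gene Sox9 at 135 to 184 CPM and the germ-cell gene Ddx4 at 167 to 220 CPM in controls.

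The start regions of the 3 members that rose in the cKO (Gja1, Dsp and Ocln) and of Cldn11, the main claudin of the barrier, which did not pass, are shown so that the genes can be compared. Each is the 250 bases before a RefSeq transcript start (build GRCm38.p6), read 5′ to 3′ on the gene's strand, with capitals marking the motifs that were searched on either strand. The windows are chr10:56377050-56377299 (plus strand) for Gja1, chr13:38151044-38151293 (plus) for Dsp, chr13:100552719-100552968 (minus) for the first-listed of 2 starts of Ocln, and chr3:31149670-31149919 (plus) for Cldn11.
Gja1: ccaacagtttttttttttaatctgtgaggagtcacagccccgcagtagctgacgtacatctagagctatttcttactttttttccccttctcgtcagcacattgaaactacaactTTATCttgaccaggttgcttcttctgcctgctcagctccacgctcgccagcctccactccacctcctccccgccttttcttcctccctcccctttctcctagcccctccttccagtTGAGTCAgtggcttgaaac
Dsp: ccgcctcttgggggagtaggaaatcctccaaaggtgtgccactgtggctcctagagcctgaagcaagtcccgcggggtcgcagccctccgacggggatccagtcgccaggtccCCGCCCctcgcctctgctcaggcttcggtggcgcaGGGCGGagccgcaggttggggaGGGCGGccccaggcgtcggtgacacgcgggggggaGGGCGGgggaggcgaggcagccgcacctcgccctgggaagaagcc
Ocln: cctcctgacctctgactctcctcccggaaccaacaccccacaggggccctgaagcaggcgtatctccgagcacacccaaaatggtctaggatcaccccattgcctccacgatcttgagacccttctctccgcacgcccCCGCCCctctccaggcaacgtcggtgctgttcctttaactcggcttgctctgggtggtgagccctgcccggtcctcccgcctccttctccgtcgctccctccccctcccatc
Cldn11: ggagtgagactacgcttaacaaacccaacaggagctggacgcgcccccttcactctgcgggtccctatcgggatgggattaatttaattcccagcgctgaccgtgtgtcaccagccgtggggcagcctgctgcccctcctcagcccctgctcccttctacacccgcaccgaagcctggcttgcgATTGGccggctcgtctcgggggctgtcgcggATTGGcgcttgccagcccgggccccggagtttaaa
The motifs were AP-1 (TGANTCA), the cyclic AMP response element (TGACGTCA), the GC box (GGGCGG), the CCAAT box (CCAAT), a SOX core (ACAAT) and a GATA core (GATAA), none of which overlapped another in these windows. Gja1 had an AP-1 match 19 bases before its start, a motif held by 6.75% of 32851 windows of the same length, and a GATA match at 135 bases (22.6% of windows). Dsp had 4 GC boxes, at 137, 102, 80 and 45 bases, and Ocln had 1 at 112 bases (32.7% of windows hold at least 1). The window of the other Ocln start, not shown, had a GC box at 43 bases and a CCAAT box at 25 bases. Cldn11 had 2 CCAAT boxes, at 66 and 35 bases (33.8% of windows), and no GC box in this spelling. Of the 8 members with a window used here (all but Cdh2), Gja1 alone had an AP-1 match, and no window held the cyclic AMP response element (1.55% of all windows) or the SOX core (27.7%). No motif of this set was held by all 3 members that rose. The windows were 72.4% G and C for Dsp, 64% for Ocln, 63.6% for Cldn11 and 50% for Gja1.

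Dsp, Gja1 and Ocln rose in the cKO testes, and no member fell. Thus 3 of 9 members were higher by edgeR's quasi-likelihood test at an adjusted p under 0.05, beside 11.1% of all tested genes, and 0 of 9 were lower, beside 13.9%. The other 6 did not pass; Jup came nearest to the threshold, and Cldn3 alone had a negative value. The median log2 fold change of the members was 0.28, against 0.03 for all tested genes. In RNA from whole testes, a larger or smaller share of a cell type and more or less RNA per cell cannot be told apart.

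Among the tight junction members, Ocln encodes occludin, a membrane protein of the seal. The controls held 76.5, 83.6 and 67.5 CPM of Ocln, and the cKO libraries held 113, 114 and 101 CPM. Every cKO library lay above every control, and Ocln rose 1.44-fold (0.53 on the log2 scale, SE 0.107; edgeR adjusted p = 0.0093). The call for Ocln did not hold without cKO library 1 (0.51, adjusted p = 0.0509) or cKO library 2 (0.50, adjusted p = 0.0557). Cldn11 encodes the claudin that Sertoli cells need for their tight junction strands. Levels were 197, 179 and 144 CPM in control testes against 203, 205 and 157 CPM in cKO testes, so the groups overlapped, with replicate 3 lowest in each. Its log2 fold change was 0.12 (95% interval -0.21 to 0.44, edgeR adjusted p = 0.588), an interval that leaves out a rise of the size of that of Gja1.

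Tjp1, the scaffold that links claudins and occludin to actin, varied most between controls among the abundant members. Control libraries 1, 2 and 3 had 175, 369 and 255 CPM, whereas the cKO libraries had 323, 329 and 337 CPM. The cKO values thus lay close together inside the control range, and the log2 fold change was 0.31 (95% interval -0.19 to 0.81, edgeR adjusted p = 0.332). Single controls decided its value: it was 0.06 without control library 1 (adjusted p = 0.762) and 0.61 without control library 2, where it passed (adjusted p = 0.0211). Cldn3, a claudin that is known to be incorporated into newly formed Sertoli cell junctions, was close to the detection limit, with control counts of 21, 19 and 32 and cKO counts of 6, 21 and 3. It was kept by the filter through the control libraries, which favoured a call in the lower direction from the start. The counts of cKO library 2 lay among the controls and the other cKO libraries below them. The log2 fold change was -1.11 (SE 0.564, 95% interval -2.39 to 0.16, edgeR adjusted p = 0.174). It passed without cKO library 2 (-2.17, adjusted p = 0.0479), and with any other library left out it ran from -1.28 to -0.72 and did not pass.

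Gja1 encodes connexin 43, the main gap junction protein of Sertoli cells, which Leydig cells also express. Its level was 450.1, 404 and 393 CPM in control testes, compared with 808, 792 and 759 CPM in cKO testes. The groups lay far apart compared with their spread, and Gja1 rose 1.89-fold (0.92 on the log2 scale, SE 0.0943; edgeR adjusted p = 0.000602). Leaving out any 1 library moved the log2 fold change between 0.88 and 0.95. The summed level of 6 Leydig cell markers was 827, 410 and 366 CPM in the controls and 884 to 917 CPM in the cKO, and its part in the Gja1 result was not tested.

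Nectin2 encodes an adhesion molecule on the Sertoli cell side of contacts with Sertoli and germ cells. Control testes had 212, 178 and 152 CPM of Nectin2 and cKO testes 215, 229 and 213 CPM. The groups did not overlap, but control library 1 came within 1 CPM of the lowest cKO library, and at a log2 fold change of 0.28 (SE 0.125) Nectin2 did not pass (edgeR adjusted p = 0.132). Without control library 1 it was 0.39 and passed (adjusted p = 0.00729). Cdh2 encodes N-cadherin, which both Sertoli and germ cells are known to carry. Control levels of 81.1, 114 and 89.1 CPM overlapped cKO levels of 111, 110.15 and 97.6 CPM (log2 fold change 0.17, 95% interval -0.14 to 0.47, edgeR adjusted p = 0.394). With any 1 library left out the Cdh2 value ran from 0.04, without control library 1, to 0.31, and it did not pass.

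Dsp encodes desmoplakin, which ties the desmosome plaque to intermediate filaments, and it rose most of the 9. Controls had 17.3, 18.8 and 21.8 CPM of Dsp, and cKO libraries had 44.3, 43.0 and 53.6 CPM. No cKO library came near the controls, and Dsp rose 2.43-fold (1.28 on the log2 scale, SE 0.129; edgeR adjusted p = 0.000568). Of all tested genes, 99.65% had a lower log2 fold change, and 98.55% had one lower than Gja1. Jup encodes plakoglobin, a catenin shared by desmosomes and adherens junctions. Jup levels were 68.0, 66.8 and 69.1 CPM for controls against 86.3, 84.5 and 76.0 CPM for the cKO. Its groups did not overlap either, yet its log2 fold change of 0.28 (SE 0.0901) missed the threshold (edgeR adjusted p = 0.0524). Leaving out control library 1 brought it past the threshold (0.25, adjusted p = 0.0437). The 2 desmosome members thus stood 1.28 and 0.28 above control on the log2 scale, a difference between them that was not tested.

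**Figure D1:**
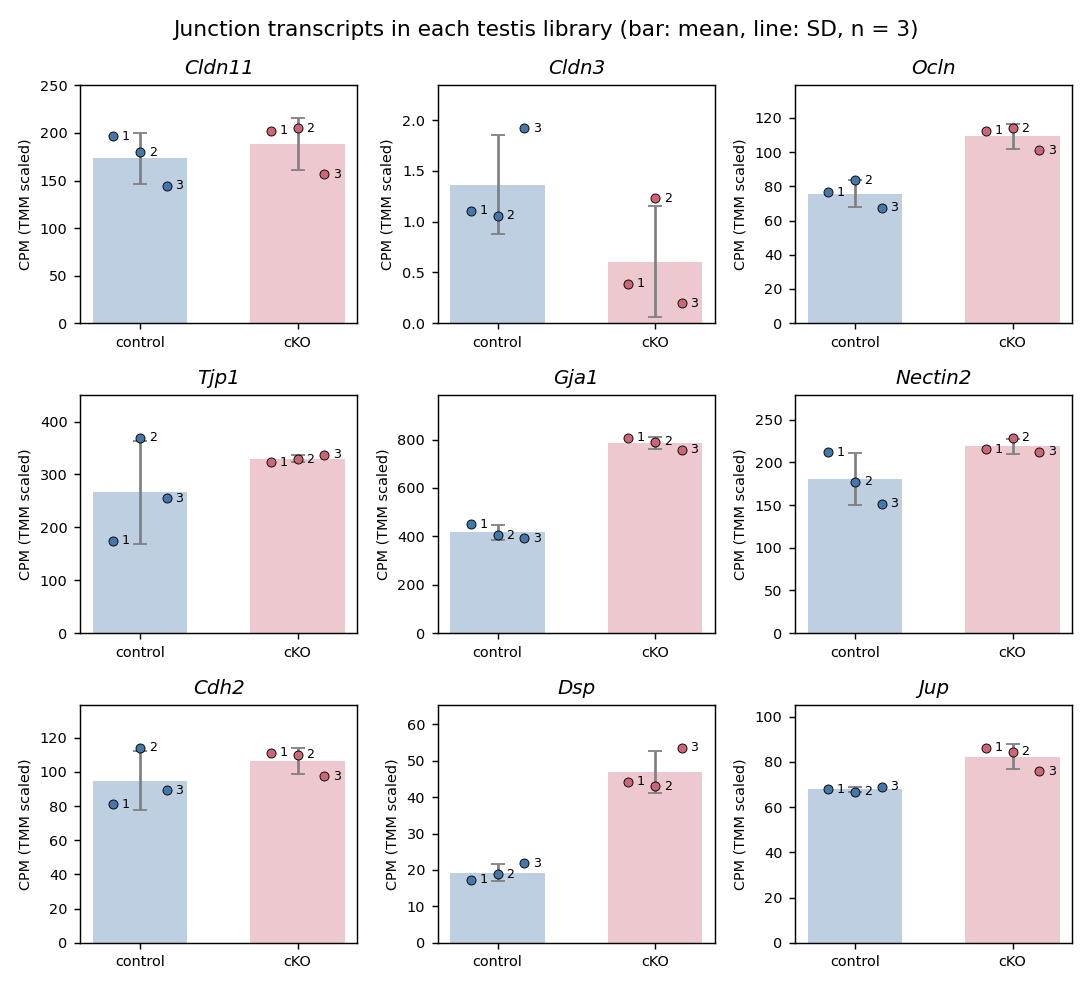
CPM of each of the 9 junction members (y axis, from 0) in the 3 control and 3 cKO libraries; points are libraries with their replicate number, bars the mean and lines the SD. The cKO points of Dsp, Gja1 and Ocln lie above all their controls, while those of Tjp1 lie inside the control range of 175 to 369 CPM.

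For 5 members (Ocln, Gja1, Nectin2, Dsp and Jup) every cKO library was above every control, beside 22.5% of all tested genes; no member had all cKO libraries below the controls, beside 22.1%. With no adjustment, 4 members passed at a p under 0.05, as did 5636 of 14424 genes. Without control library 1, 5 members were higher, Nectin2 and Jup being the added ones, and without cKO library 1 or 2 there were 2, Gja1 and Dsp. Over all tested genes, 2392 of 14554 were higher without control library 1. The number was 476 of 14693 without cKO library 1 and 452 of 14584 without cKO library 2.

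The authors' FPKM values, which are scaled to transcript length, allow levels to be compared between genes. In controls Gja1 was highest at 139 ± 11 FPKM (mean ± SD, n = 3 for this and the next values), followed by Cldn11 at 94.8 ± 14.4, Nectin2 at 73.2 ± 13.3, Tjp1 at 46.1 ± 19.1, Ocln at 28.1 ± 3.07, Cdh2 at 23.7 ± 3.54 and Jup at 21.8 ± 0.567 FPKM. Dsp at 2.21 ± 0.231 and Cldn3 at 1.11 ± 0.409 FPKM were far below. From Cldn11 down to Jup each gene's range overlapped that of the next, whereas Gja1 lay above and Dsp and Cldn3 below all others, in this order. In the cKO Gja1 reached 250.1 ± 8.41 FPKM beside 98.3 ± 14.3 for Cldn11, and Dsp 4.97 ± 0.605 FPKM. Dsp therefore stayed low against its desmosome partner Jup, at 25.99 ± 1.71 FPKM in the cKO, although it rose most. The order was otherwise that of the controls, except that Jup and Cdh2 changed places.

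The cell type markers moved with genotype as well. Of 16 pan-germ-cell markers 16 fell, the median log2 fold change being -1.43, and their summed level was 1738 to 2191 CPM in controls and 643 to 819 CPM in cKO. Of 20 Sertoli cell markers, none of them a junction member, 8 rose and 0 fell (11.1% and 13.9% of all tested genes), with a median of 0.34. Their summed level was 6842 to 9364 CPM in controls, highest in control library 1, and 9357 to 10648 CPM in cKO. Sox9 and Amh, which define the cell type here, were at 0.44 and 0.71 (edgeR adjusted p = 0.028 and 0.038).

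Markers of the other cell types were summed in the same way. The summed level of 6 endothelial markers was 104 to 124 CPM in controls and 150 to 169 CPM in cKO, and 3 rose, Pecam1 among them. For 6 macrophage markers it was 78.3 to 95.4 and 111 to 127 CPM, with 1 higher gene, and Csf1r did not pass (edgeR adjusted p = 0.133). The 6 peritubular myoid markers summed to 1256 to 1283 and 1265 to 1319 CPM, with 1 higher gene, and Acta2 was at -0.15 (adjusted p = 0.278). Of the 6 Leydig cell markers 1 rose, and Cyp17a1 was at 200.02 CPM in control library 1 against 32.9 and 20.2 CPM in the other controls. Erythroid markers (5 genes, 0 passed) summed to 166 to 659 CPM in controls, highest in control library 1, and to 227 to 435 CPM in cKO. Pax8, Krt7 and Krt19, markers of the rete testis and ducts, whose epithelia also carry desmosomes, summed to 4.91 to 8.05 CPM in controls and 7.17 to 11.3 CPM in cKO, and 0 of 3 passed. The log2 fold changes of Pax8, Krt7 and Krt19 were 0.58, 0.30 and 1.29. Counts were few, for Krt19 10, 14 and 21 in controls and 57, 15 and 26 in cKO. None of the markers summed here was at 0 in all libraries. Their part in the differences of the junction genes was not tested, other than by the scaling to Sertoli cell markers.

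**Figure D2:**
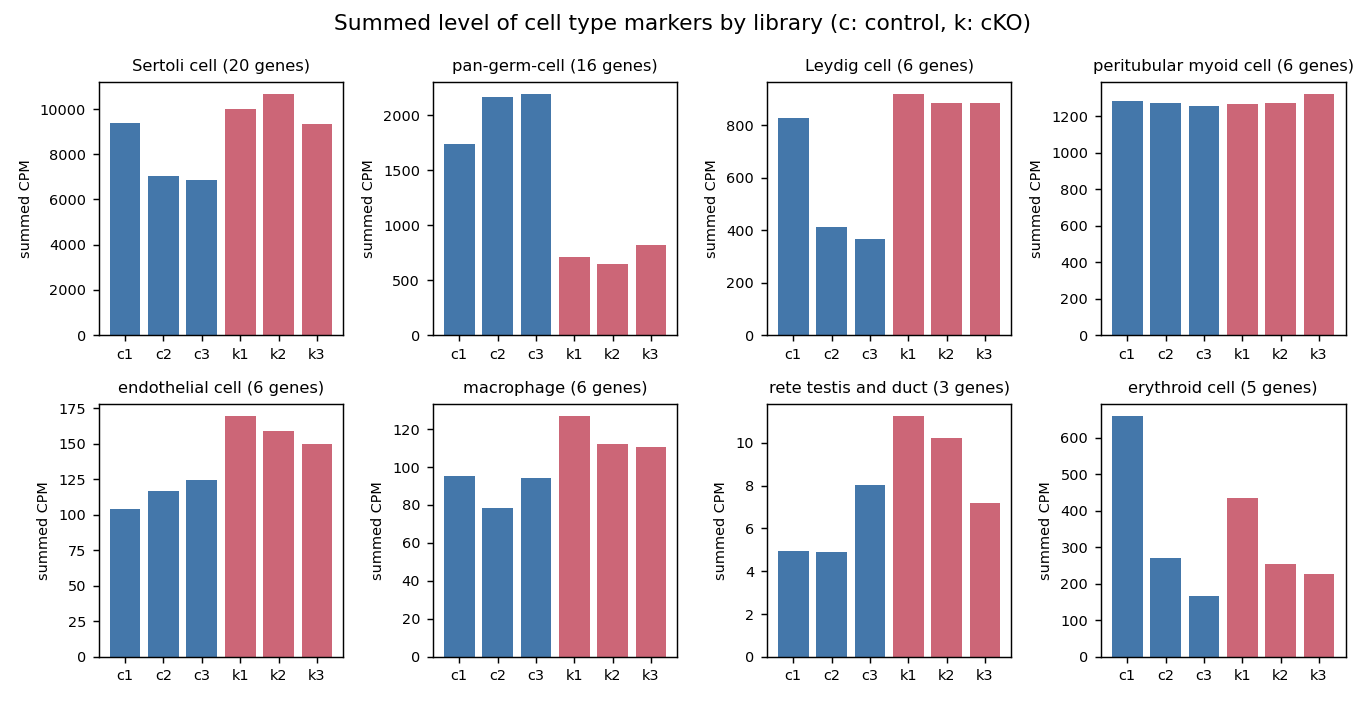
Summed CPM (y axes, from 0) of each fixed marker list in control libraries 1 to 3 (c1 to c3) and cKO libraries 1 to 3 (k1 to k3). Germ-cell markers are lower in every cKO library, and control library 1 is closer to the cKO than to the other controls for Sertoli (9364 CPM) and Leydig cell markers (827 CPM).

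Set against the Sertoli cell markers in the same library, Gja1 and Dsp remained higher in the cKO and the other members did not. With libraries scaled to the 20 markers, Gja1 was at 0.54 (95% interval 0.24 to 0.84, edgeR adjusted p = 0.0145) and Dsp at 0.89 (0.43 to 1.36, adjusted p = 0.011). Ocln was at 0.14 (-0.23 to 0.50, adjusted p = 0.555), so its call was lost. This scaling lowered the median of all tested genes by 0.38, to -0.35, and 0.257% of them were higher and 31.2% lower, beside 2 and 0 of the 9 members. Cldn11 (-0.26), Tjp1 (-0.12), Cdh2 (-0.24), Nectin2 (-0.09) and Jup (-0.11) thus turned negative with the shift, lay above that median and did not pass. Cldn3 was at -1.54 and did not pass (adjusted p = 0.0665). With control library 1 also left out, a choice made after seeing the data, Gja1 (0.47) and Dsp (0.71) remained higher, while Cldn11 (-0.29, adjusted p = 0.0348), Tjp1 (-0.42, adjusted p = 0.00293), Cdh2 (-0.44, adjusted p = 0.00132) and Cldn3 (-1.77, adjusted p = 0.00148) were lower. For Cldn3, kept by the filter through the controls, a lower call was favoured from the start. In that setting 0.783% of all tested genes were higher and 58.8% lower, the median being -0.46, and Cldn11, Tjp1 and Cdh2 lay above that median. The intervals do not include the error of the marker level itself.

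On the log2 scale, Gja1 stood 1.28, 1.496 and 1.49 above the mean of the markers in the controls and 2.01, 1.87 and 2.00 above it in the cKO, without overlap. Dsp stood below that mean, at -3.41, -2.92 and -2.68 in the controls and at -2.17, -2.32 and -1.82 in the cKO, also without overlap. Cldn11 was at 0.09, 0.32 and 0.04 in the controls and at 0.02, -0.07 and -0.28 in the cKO, which lay below every control, cKO library 1 only just. Cldn3 also lay below every control, at -8.62, -7.32 and -9.22 in the cKO against -7.24, -6.93 and -6.10. Nectin2, at 0.19, 0.31 and 0.11 in the controls and 0.11, 0.09 and 0.17 in the cKO, overlapped, as did Ocln, Tjp1, Cdh2 and Jup. How many of all tested genes had no overlap on this scale was not counted, so these separations are a description only. By a different measure, with libraries scaled to these markers, 31.2% of all tested genes were called lower and 0.257% higher.

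**Figure D3:**
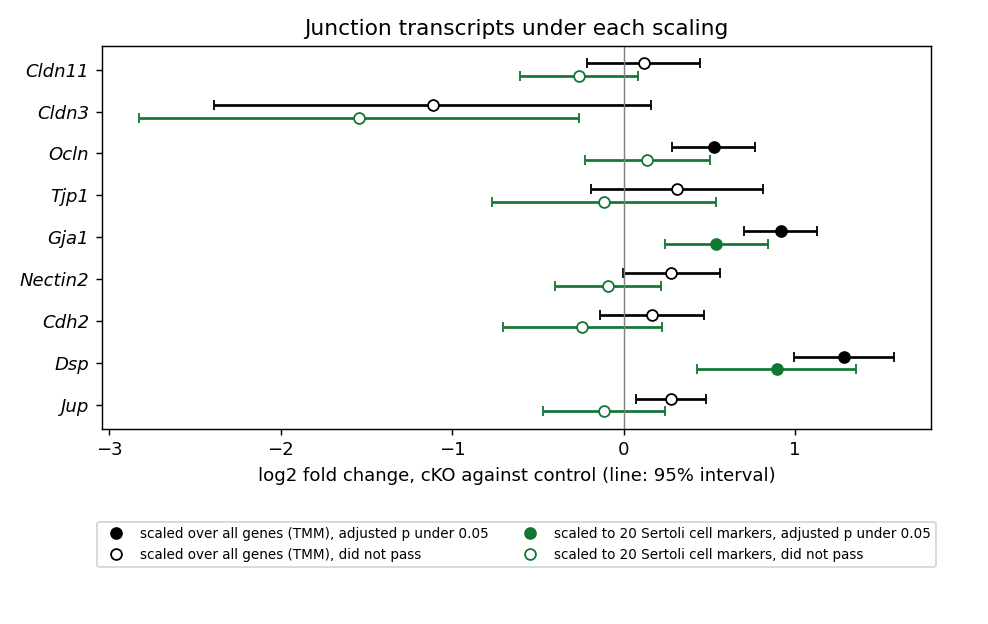
Log2 fold change, cKO against control, of each member (x axis) with its 95% interval, for libraries scaled over all genes (black) and to 20 Sertoli cell markers (green); filled points passed at an adjusted p under 0.05. Dsp (1.28 and 0.89) and Gja1 (0.92 and 0.54) passed under both scalings, and Ocln only when scaled over all genes.

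Other genes of each junction class were described with the same fit, in which 11.1% of all tested genes were higher, 13.9% lower and 25% either, with a median of 0.03. Of 15 other connexin and pannexin genes 9 were tested, and 0 rose while 3 fell, with a median of -0.45. Gjc1, which encodes connexin 45 and was the most abundant of them, fell from 53.4, 52.9 and 56.7 CPM to 30.2, 30.6 and 31.8 CPM in cKO testes (log2 fold change -0.81, SE 0.0866, edgeR adjusted p = 0.000707). Gjc1 thus moved opposite to Gja1, with no overlap in either gene. Gja3, which encodes connexin 46, had control counts of 34, 28 and 32 and 2 counts in each cKO library, and its control level was 13.9 times that of the cKO (95% counting interval 6.15 to 38.8; edgeR adjusted p = 0.000695). Panx2, of the related pannexin family, had 34, 21 and 24 counts against 9, 7 and 2 (edgeR adjusted p = 0.0162), a call lost without control library 3 (adjusted p = 0.0545), cKO library 2 (0.0664) or cKO library 3 (0.0524). Gja3 and Panx2 were kept by the filter through their control libraries alone and so could only be called lower, although both kept their calls with no filter. Gjc1 is thus the only call of this list whose direction the filter did not fix. The count and the median are given as a description.

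Of 14 other desmosome genes 9 were tested, and 2 rose and 2 fell, beside 11.1% and 13.9% of all tested genes. The cadherins of the desmosome were the higher ones: Dsc2 rose from control levels of 12.7, 13.0 and 14.5 CPM to 18.0, 18.8 and 22.3 CPM (by 0.55 on the log2 scale, edgeR adjusted p = 0.0168). Dsg2 went from 3.48, 4.57 and 4.45 CPM to 6.96, 6.34 and 6.84 CPM (0.69, adjusted p = 0.0268). For both genes the groups did not overlap, but without cKO library 2 or 3 no gene of the list was higher, and Dsg2 also lost its call without control library 3 (adjusted p = 0.0644) or cKO library 1 (0.0972) and with the replicate number as a block (0.0582). Over all genes, 452 were higher without cKO library 2 and 673 without cKO library 3. Evpl, which encodes the plaque linker envoplakin, fell from 8.97, 14.2 and 16.2 CPM to 5.66, 3.23 and 5.65 CPM (-1.44, adjusted p = 0.00775). Pkp1, the plakophilin 1 gene, had 13, 16 and 20 counts against 0, 1 and 2, and its control level was 14.5 times that of the cKO (95% counting interval 4.67 to 72.6; edgeR adjusted p = 0.00551). Pkp1 was also kept through the controls alone and could only be called lower. Pkp4, the most abundant of the list, did not pass (0.22, adjusted p = 0.111). The median of 0.22 turned to between -0.23 and -0.02 when control library 1 or 3 or cKO library 1 or 3 was left out, to -0.05 with no filter on low counts and to -0.16 with Sertoli marker scaling.

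Of 21 other adherens junction genes, which include those of the ectoplasmic specialisation, the actin-rich Sertoli cell contact, 20 were tested. In this list 7 rose and 0 fell, beside 11.1% and 13.9% of all tested genes, with a median of 0.27. Nectin1 rose from 23.0, 21.3 and 22.4 CPM in control testes to 40.3, 36.3 and 38.7 CPM (0.79 on the log2 scale, SE 0.0964, edgeR adjusted p = 0.00131). Eps8, an actin-capping protein gene of the ectoplasmic specialisation, rose from 96.1, 107 and 93.9 CPM to 139, 139 and 141 CPM (0.50, adjusted p = 0.00603). Cdh3, the P-cadherin gene, rose from 57.6, 63.7 and 78.1 CPM to 125, 84.9 and 127 CPM (0.76, adjusted p = 0.0147), but not past the threshold without cKO library 1 (0.0677) or 3 (0.0608). The catenin genes Ctnna2 (0.38, adjusted p = 0.0189) and Ctnnb1 (0.31, adjusted p = 0.0317) rose as well, Ctnnb1 being the most abundant of the list at 806 to 871 CPM in controls and 1018 to 1055 CPM in cKO. The remaining 2 were Cdh5 (0.45) and Ctnnd1 (0.40), named after their values were seen. The number of higher genes was 4 without control library 3, 2 without cKO library 1 or 3, 3 without cKO library 2, and 4 with total-count scaling or the replicate number as a block. Over all genes, 677 were higher without control library 3, and 476, 452 and 673 without cKO library 1, 2 and 3. The same number was 1109 with total-count scaling and 1248 with the block, against 1599 in the fit used throughout. The calls of Ctnna2 and Ctnnb1 were lost without control library 3 or any 1 cKO library, with adjusted p from 0.0599 to 0.144, and that of Ctnnb1 also with total-count scaling (0.0628) or the block (0.0848).

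Of 27 other tight junction genes 21 were tested, with a median of 0.25. Of these 4 rose and 2 fell, beside 11.1% and 13.9% of all tested genes, and together they were near the 25% that passed in either direction. Jam2, a junctional adhesion molecule gene, rose from 196, 204 and 181 CPM in control testes to 303, 338 and 292 CPM (0.68 on the log2 scale, SE 0.0982, edgeR adjusted p = 0.00251). Pard3, a polarity scaffold gene, rose from 32.9, 40.0 and 36.5 CPM to 49.4, 52.3 and 55.7 CPM (0.53, adjusted p = 0.00816). Cgn, which encodes cingulin and was the most abundant of the list, rose by 0.50 (adjusted p = 0.0239), and Cxadr, an adhesion receptor gene, by 0.40 (adjusted p = 0.0175). Both of these calls were lost without control library 3 or any 1 cKO library, with adjusted p from 0.051 to 0.103, and that of Cxadr also with the length trend removed (0.0502). Tjp3, a paralogue of Tjp1, fell from 2.06, 4.18 and 3.01 CPM to 0.715, 0.705 and 0.731 CPM (-2.09, adjusted p = 0.0041). The other gene that fell was Marveld2, which encodes tricellulin (-0.63, adjusted p = 0.0182), picked out once values were known. The count of higher genes was 7 without control library 1 and 2 without any 1 cKO library. Over all genes, 2392 were higher without control library 1 and 452 to 673 without any 1 cKO library.

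Of 20 genes that are known to regulate the Sertoli cell barrier 18 were tested, with a median of 0.17. Of these 5 rose and 0 fell, beside 11.1% and 13.9% of all tested genes, and 25% in either direction. Those that rose were the FSH receptor gene Fshr (0.47, edgeR adjusted p = 0.0108), the transcription factor genes Gata4 (0.45, adjusted p = 0.012) and Sox8 (0.41, adjusted p = 0.0412; singled out once values were known), the TGF-beta gene Tgfb2 (0.57, adjusted p = 0.0206) and Prkaa1, of AMP-activated kinase (0.35, adjusted p = 0.0237). Fshr levels were 35.7, 31.2 and 35.2 CPM for controls and 49.6, 47.9 and 43.8 CPM for the cKO. Without cKO library 1 or 2 none of the 5 passed, and the list had 3 higher genes without control library 3 and 2 without cKO library 3. Over all genes, 476 and 452 were higher without cKO library 1 and 2, 677 without control library 3 and 673 without cKO library 3. The call of Prkaa1 was also lost with the replicate number as a block (adjusted p = 0.0552). Without control library 1 the list had 4 lower genes, beside 2863 of 14554 tested genes. It had 1 lower gene with DESeq2, with upper-quartile scaling and with total-count scaling. Over all genes, 2274, 2088 and 2424 were lower in these settings. Cdc42, a small GTPase gene and the most abundant of the list, was at -0.02 (adjusted p = 0.881). Fshr and Wt1 also stand among the Sertoli cell markers.

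Scaled to the Sertoli cell markers, none of the genes of these 5 lists was higher past the threshold, beside 0.257% of all tested genes. Fshr and Wt1 were themselves part of this scaling. Lower past the threshold were 4 gap junction, 2 tight junction and 0 adherens junction genes, beside 31.2% of all tested genes, and Pkp1 and Evpl stayed lower. The medians of the tight junction and adherens junction lists were then -0.13 and -0.12, against -0.35 for all tested genes, and the calls of Jam2 (0.30, adjusted p = 0.171) and Nectin1 (0.41, adjusted p = 0.0679) were lost.

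**Figure D4:**
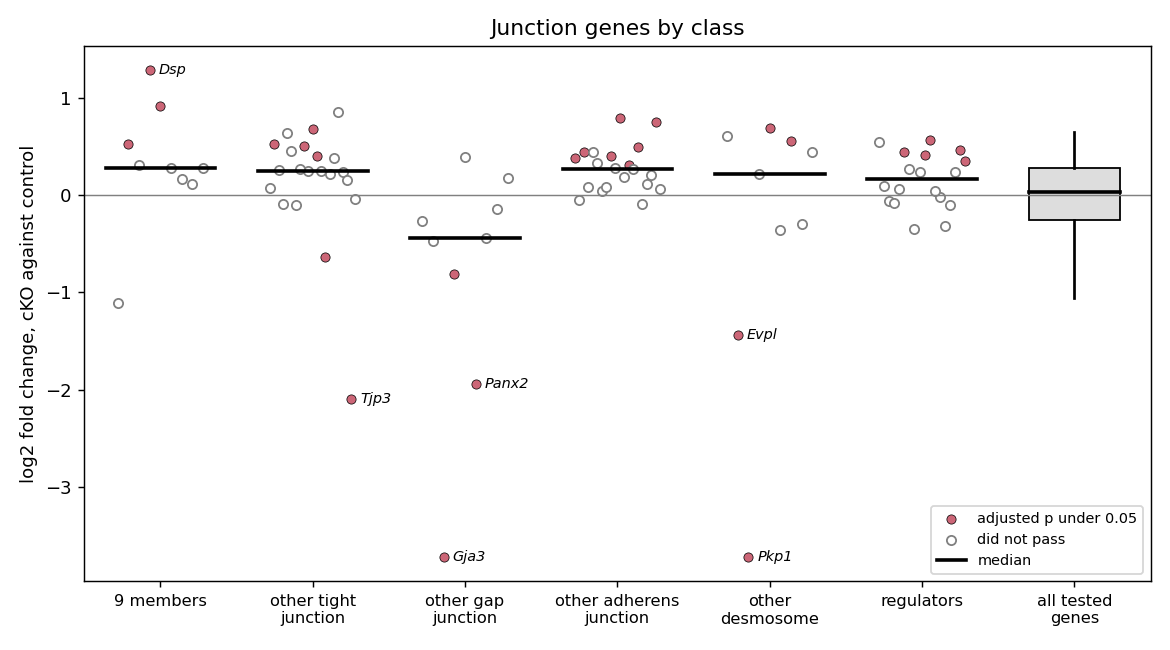
Log2 fold change, cKO against control (y axis), of the tested genes of each junction class (points; filled where the adjusted p was under 0.05) with the class median (line); the box shows the quartiles and median of all 14424 tested genes and its whiskers the 5th and 95th percentiles. Dsp at 1.28 is the highest point, and Gja3, Pkp1, Tjp3, Panx2 and Evpl are the lowest.

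Each member was also matched to the gene with the most similar course over the 6 libraries, by the root mean square distance between log2 CPM values centred on each gene's mean, among 12529 genes. The match was picked on the same libraries that were compared. A similar log2 fold change therefore follows from the choice and is not a separate result. Tjp1 was nearest to Itga6, an integrin gene, at a distance of 0.03 where the median gene was at 0.42, and Itga6 was likewise low in control library 1 and high in control library 2 (101, 225 and 149 CPM in the controls). Gja1 was nearest to Cachd1 (0.05), a gene that rose by 0.89, Dsp to the carbonic anhydrase gene Car12 (0.14), which rose by 1.25, and Ocln to Slc11a2 (0.04), an iron transporter gene, which rose by 0.52. Cldn3 had no close match, with Rhov nearest at 0.43. The other members lay within 0.02 to 0.05 of their nearest genes, Jup of Serinc1, Nectin2 of Sfxn2, Cdh2 of Sptan1 and Cldn11 of Pwwp2b. Among the members themselves the nearest pair was Cldn11 and Nectin2, at 0.14, and Gja1 and Dsp were 0.27 apart.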

How the data were processed

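For every gene, the deposited table has a count and an FPKM value in each library. StringTie 1.3.1 and RSEM appear, without a role, in the submitters' processing notes; aligner, genome build, annotation and strand use are each not given in the sources used here. The counts are whole numbers, yet in each library 3 to 21 genes with no count had an FPKM above 0, so they were taken as estimated counts rounded by the authors and used as deposited. FPKM values, scaled by the authors to transcript length and library size, were used to compare levels between genes and, with the counts, to imply transcript lengths.

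Symbols came from the supplied table of gene names (22219 of 22274 IDs matched). Pals1 and Cldn25 were found through RefSeq synonyms, as Mpp5 and Cldnd1. The filter was filterByExpr (edgeR 4.0.16, minimum count 10), and genes left out held 0.063% of counts. Counts were scaled by TMM, tested by group alone with glmQLFit and glmQLFTest in R 4.3.3, and p-values adjusted by Benjamini-Hochberg over all 14424 tested genes, with a threshold of 0.05. SE is the log2 fold change divided by the square root of F, intervals are 95%, and counting intervals are exact binomial and cover counting error only.

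The members and lists were chosen with earlier results of these data known, and only counts and medians are given for lists. Besides the members, the text names up to 4 genes past the threshold with the smallest p and the most abundant gene of each junction list, the defining markers, and the nearest gene of each member (mean log2 CPM of at least 1). Alternatives were DESeq2 1.42.0, limma-voom (limma 3.58.1), total-count, upper-quartile and RLE scaling, scaling to 20 Sertoli cell markers, no filter, CPM of at least 1 in 3 libraries, the replicate number as a block, removal of a length trend (lowess, span 0.3, from lengths of 99.86% of tested genes), and each library left out. The procedure was tested on simulated data with few changed genes, in similar steps up and down, which cannot test the choice of scaling. Promoter windows come from the RefSeq table of build GRCm38.p6.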

Additional observations from a re-analysis of the deposited data

How the results depend on the processing

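Gja1 and Dsp kept their direction and their call in all 16 alternatives, at 0.54 to 0.95 and 0.89 to 1.38. Ocln kept its direction (0.14 to 0.59) and lost its call with Sertoli marker scaling and without cKO library 1 or 2. With the length trend removed, 5 members were higher, Jup (0.27, adjusted p = 0.0208) and Nectin2 (0.32, adjusted p = 0.0328) being added, beside 2369 of 14404 tested genes. With any 1 library left out, 2 to 5 members were higher and 0 to 1 lower, and 452 to 2392 genes were higher and 903 to 2863 lower over all genes. Scaled to the Sertoli cell markers, 37 genes were higher and 4502 lower, so that 0.815% of calls were higher instead of 44.3%. That share was 31.4% with total-count scaling and 33% to 37.7% without control library 3 or any 1 cKO library. Scaled to these markers Cldn11 turned to -0.26, Tjp1 to -0.12, Cdh2 to -0.24, Nectin2 to -0.088, Jup to -0.11, Ctnnb1 to -0.080, Pkp4 to -0.16 and Prkaa1 to -0.044. With control library 1 left out as well (added after seeing the data), Cldn11 was at -0.29, Tjp1 at -0.42, Cdh2 at -0.44, Nectin2 at -0.095 and Jup at -0.23. Cdc42 turned to 0.048 with the length trend removed, and ran from -0.070 to 0.026 with any 1 library left out (0.026 without control library 1, 0.0019 without cKO library 1). The cause of these changes was not tested.

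Same-numbered control and cKO libraries did not deviate together (correlations of -0.07, -0.08 and 0.07). The labels do not say whether the numbers pair the samples, and these values cannot settle it. With the replicate number as a block, 3 members were higher and 0 lower, and 1248 genes were higher and 1574 lower over all genes. Among the members, depth was lowest for Cldn3, at 3 to 32 counts per library; its counts alone gave a control level 2.13 times that of the cKO (95% counting interval 1.37 to 3.38), and the call turned on cKO library 2.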

Other observations

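Dividing the authors' counts by their FPKM values gives the transcript length that the 2 values imply together, which can differ between libraries where a gene has several transcripts. For Cldn11 and Gja1 it was the same in every library within 1%, at medians of 1870 and 3071 bases. For Tjp1 it was 6333, 5580 and 6042 bases in control libraries 1, 2 and 3 and 5655 to 5766 bases in the cKO, longest in control library 1, where Tjp1 was lowest. The highest Tjp1 value was 1.13 times the lowest, and 74.8% of 13544 genes had a smaller ratio. For Ocln it was 3000 bases in control library 1, 2652 and 2654 bases in the other controls and 2726 to 2813 bases in the cKO. Dsp ran from 8583 bases in control library 1 to 9357 bases in cKO library 2. These lengths are given as values and were not tested.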
